A study of Homo sapiens with 15 samples.

Results

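The LY6 and LYPD surface proteins are represented on the array by 13 probes of 9 genes, LYPD1, LYPD3, LYPD5, LYPD6, LY6D, LY6E, LY6K, SLURP1 and PSCA, out of 42405 distinct probes and 19483 named genes. A probe was taken when it was not a control and its RefSeq accession belonged to one of these genes. LYPD1 has 3 probes, LYPD3 and LYPD6 have 2 each and the other genes have 1 each. By the RefSeq gene table, 5 of the genes (LY6D, LY6E, LY6K, SLURP1 and PSCA) lie on chromosome 8, 2 (LYPD3 and LYPD5) on chromosome 19 and 2 (LYPD1 and LYPD6) on chromosome 2. The genes were chosen by their family together with their green-channel differences between CYGB+ and NCE in these same samples, so their values below are a description and support no test. All array differences are given as log2 signal in CYGB+ minus log2 signal in NCE.

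The cells are PE/CA-PJ41, a cell line from an oral squamous cell carcinoma, profiled on 15 microarrays. NCE cells are labelled as carrying the empty vector (3 biological replicates on 9 arrays), while the paper calls its NCE control un-transfected, and the conflict could not be settled here. CYGB+ cells carry a plasmid with the human cytoglobin cDNA (3 biological replicates on 6 arrays). The cytoglobin lines were selected with G418 and picked with cloning rings, and the CYGB+ cells profiled are 1 such clone. Whether NCE cells went through the same selection is not clear from the sources, so transgene, selection and clone cannot be told apart. RNA was taken on separate occasions from lines in culture, so the spread between replicates is that between RNA preparations of the same cells. The arrays sit on 2 slides, one with 8 NCE arrays and the other with the remaining NCE array, of replicate 1, and all 6 CYGB+ arrays, so slide and group are nearly the same division. Per array, 53.8 to 61.3% of spots were well above background, the scanner software's flag for a spot brighter than its surroundings, and at most 1 spot was saturated. The first array of CYGB+ replicate 1 stood apart, with a mean correlation of 0.934 with the other arrays of its group against 0.9708 to 0.9885 for the rest.

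The probe for CYGB, the gene on the plasmid, was at 11.87, 12.16 and 11.94 in NCE and at 11.36, 12.42 and 11.96 in CYGB+. Its difference was -0.07 (SE 0.25), with an adjusted p of 0.87 in limma, so the probe did not separate the labels. It was well above background on all 15 arrays, although the study describes the parent line as not expressing cytoglobin. The paper assessed cytoglobin separately by qPCR and in-cell ELISA and describes the profiled clone as a high expresser. Whether the probe lies within the cDNA on the plasmid is not given in the sources used here, and an exchange of labels or channels was not tested. CYGB+ below means the arrays labelled so, and the direction of every difference rests on those labels. All 12 squamous epithelial marker genes (KRT5, KRT14, TP63 and others) were well above background on all 15 arrays. Of these, 1 was called, beside 13.8% of all tested genes. It was KRT6A, a keratin of activated keratinocytes, lower by 0.51 in log2 (adjusted p = 0.028, limma). The mean log2 signal of the 12 markers ran from 10.73 to 10.86 over the NCE replicates and from 10.74 to 11 over the CYGB+ replicates. Of 10 markers of leukocytes, endothelium, fibroblasts and melanocytes, 2 were well above background on all arrays, and COL3A1, PDGFRB and MLANA were so on none. The mean of these 10 was 6.33 to 6.59 in NCE and 6.20 to 6.28 in CYGB+. The upper NCE value, of replicate 1, includes PECAM1 at 7.64, against 6.03 and 5.99 in replicates 2 and 3. The highest NCE array of that probe was at 10.94 and the NCE array median at 6.01. The type I collagen gene COL1A2 was called, lower by 1.33 in log2 (adjusted p = 0.0029, limma). The part of COL1A2-expressing cells or states in the results below was not tested. In bulk RNA, fewer cells with a transcript and less transcript per cell cannot be told apart.

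The LY6/uPAR family shares a small three-fingered fold held by disulphide bridges. Most members are tethered to the outer cell membrane by a glycosylphosphatidylinositol (GPI) anchor, while a few, such as SLURP1, are secreted. They act mainly by binding other surface molecules, among them nicotinic acetylcholine receptors, integrins, laminins and the Wnt co-receptor LRP6. Several are products of stratified squamous epithelium, the tissue from which oral carcinomas arise.

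The bases before the first transcript start are shown for LYPD1 and LYPD6, the genes with the larger positive differences, and for LYPD3, the gene with the larger negative one. Each line holds the 250 bases before a start, from RefSeq (GRCh38.p14), written 5′ to 3′ on the strand of the gene, with motif matches in capitals.
LYPD1 (chr2:132671527-132671776, strand minus): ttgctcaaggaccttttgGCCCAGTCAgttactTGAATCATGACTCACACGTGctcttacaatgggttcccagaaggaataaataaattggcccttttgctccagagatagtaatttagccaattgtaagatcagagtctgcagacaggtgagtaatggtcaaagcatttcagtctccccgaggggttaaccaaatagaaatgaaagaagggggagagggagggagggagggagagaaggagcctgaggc
LYPD6 (chr2:149329735-149329984, strand plus): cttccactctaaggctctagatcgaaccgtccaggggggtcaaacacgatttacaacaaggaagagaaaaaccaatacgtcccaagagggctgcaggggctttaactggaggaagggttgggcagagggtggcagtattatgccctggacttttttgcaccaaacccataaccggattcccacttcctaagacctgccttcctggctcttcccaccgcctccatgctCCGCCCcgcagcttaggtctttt
LYPD3 (chr19:43465609-43465858, strand minus): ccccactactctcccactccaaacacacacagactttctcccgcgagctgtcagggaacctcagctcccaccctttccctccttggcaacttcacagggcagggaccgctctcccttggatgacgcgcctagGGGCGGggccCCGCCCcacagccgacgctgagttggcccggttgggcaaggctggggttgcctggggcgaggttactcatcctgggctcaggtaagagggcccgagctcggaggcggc
Motifs were searched on both strands as AP-1 (TGANTCA), E-box (CACGTG), GC box (GGGCGG) and the antioxidant response element core (TGACNNNGC). The LYPD1 window held 2 AP-1 matches, 1 E-box and 1 antioxidant response element core, the matches forming 2 capital runs because several adjoin or overlap. The LYPD6 window held 1 GC box and the LYPD3 window held 2. Over 35116 promoter windows of the same length, AP-1 letters were present in 6.57%, the E-box in 6.34%, the GC box in 42.6% and the antioxidant core in 10.9%. The windows held 2 (LYPD1), 8 (LYPD6) and 14 (LYPD3) CpG pairs, against a median of 11. RefSeq lists a second start for LYPD1, with 18 CpG pairs before it, and for LYPD6, with 43. The arrays do not show which start was used, and a match to these letters is not evidence of binding.

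Of the 13 probes, 11 were well above background on every array of at least 1 group and entered the fit with 19791 probes. Of these 11, 4 passed this filter only through the CYGB+ arrays, namely LYPD1 probe b, both LYPD6 probes and SLURP1. In limma with Benjamini-Hochberg adjustment over the whole table, 6 of the 11 passed a threshold of 0.05, 3 higher and 3 lower in CYGB+, in 4 genes. Across all probes 12.0% passed, 5.88% higher and 6.15% lower, and since the genes were picked with these results known nothing is read from the comparison. For 9 of the 11 probes the replicate values of the groups did not overlap, which held for 34.9% of all tested probes. With slide as a term 5 were called, against 3.87% of all probes, and without the array that stood apart 20.8% of all probes were called and 8 of the members. Across single arrays the groups stayed apart for 6 of the 11, which held for 11.0% of all tested probes. The median difference was 0.28 over the member probes and 0 over all tested probes.

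**Figure D1:**
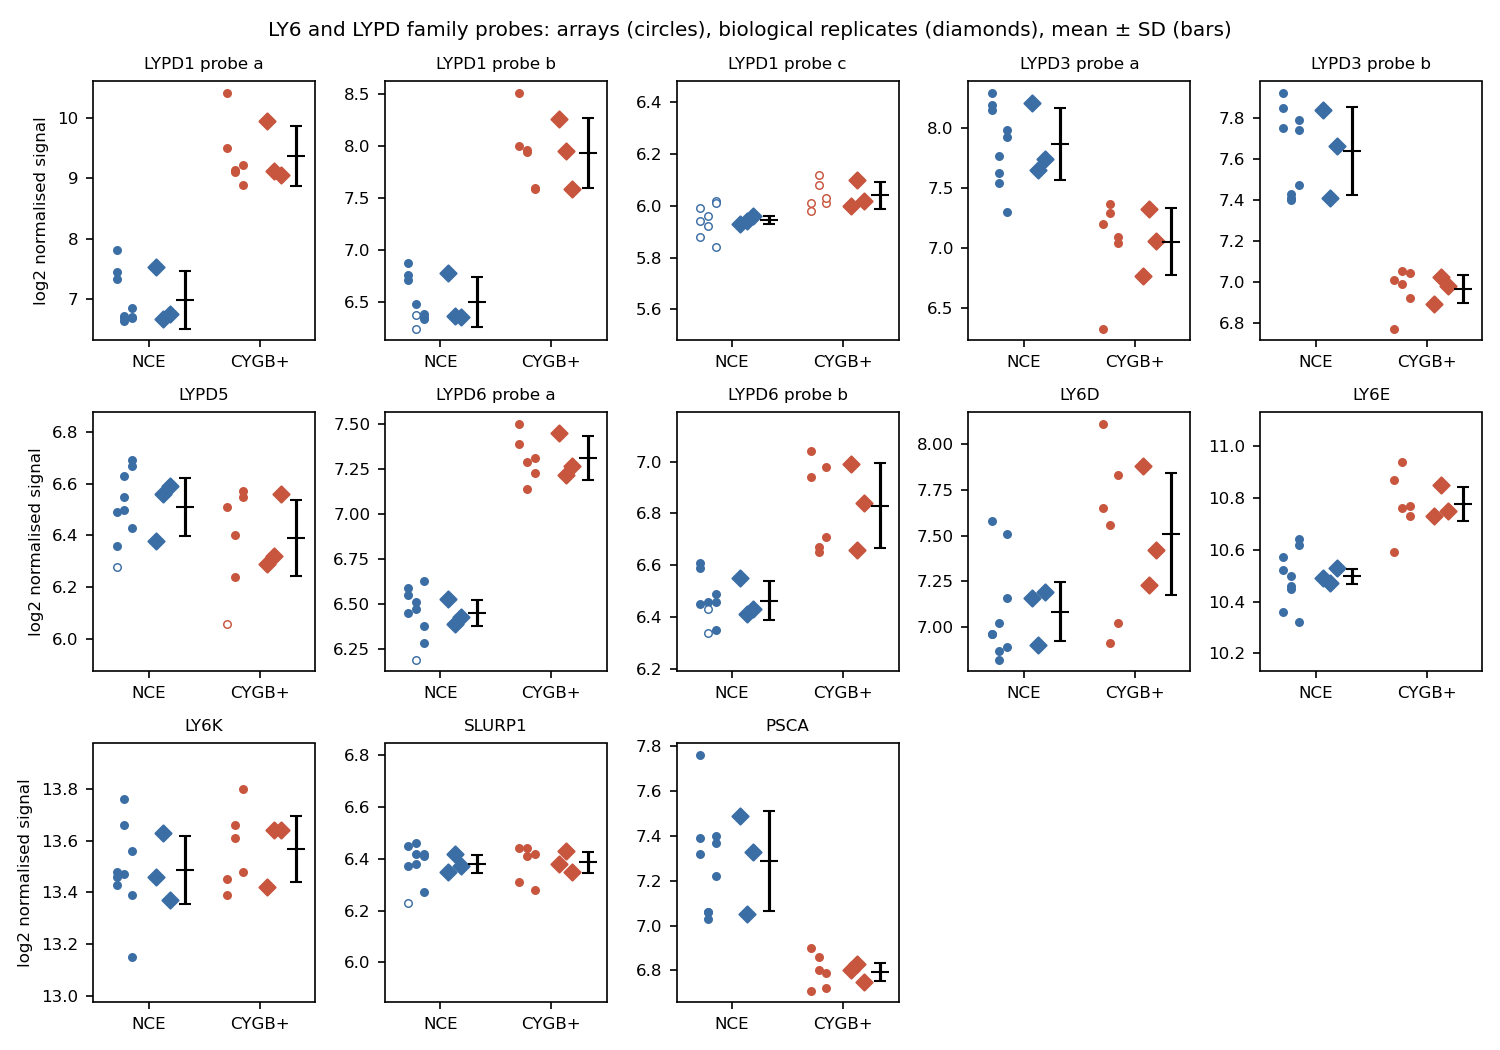
Each panel plots 1 probe with its own axis of log2 normalised signal, NCE on the left and CYGB+ on the right. Circles are arrays (open where not well above background), diamonds are the 3 biological replicates of a group, and bars are the mean ± SD of the replicates. LYPD1 probes a and b and both LYPD6 probes lie higher in CYGB+ on every array, LYPD6 probe b narrowly. LYPD3 probe b and PSCA lie lower on every array, and LY6K and SLURP1 overlap.

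Among the members known to act on nicotinic receptors, LYPD1 (also called Lynx2), which binds these receptors in neurons and dampens them, had the largest difference. Its first probe, here probe a, read 7.53, 6.68 and 6.75 in the NCE replicates and 9.94, 9.12 and 9.05 in the CYGB+ replicates. The group means were 6.99 ± 0.47 (SD, n = 3) and 9.37 ± 0.50 (SD, n = 3). The lowest CYGB+ replicate lay above the highest NCE replicate by more than either SD. The difference was 2.38 (SE 0.30, 95% interval 1.68 to 3.08), a signal 5.21-fold higher. Over arrays, NCE ran from 6.64 through a median of 6.72 to 7.82 and CYGB+ from 8.89 through 9.17 to 10.4. The probe was well above background on all 9 NCE and all 6 CYGB+ arrays, and replicate 1 was the highest of its group in both.

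LYPD1 probe b read 6.78, 6.36 and 6.35 in NCE and 8.26, 7.95 and 7.59 in CYGB+. Here too the groups were apart on every array, NCE spanning 6.24 to 6.87 and CYGB+ 7.59 to 8.51. Its difference was 1.43 (SE 0.19, 95% interval 0.98 to 1.88), or 2.70-fold, and 7 of 9 NCE arrays were well above background. Over the 6 replicates it followed probe a with a Pearson r of 0.992, a description of 2 probes of the same RNA. Probe c, by contrast, read 5.93, 5.94 and 5.96 in NCE and 6.0, 6.10 and 6.02 in CYGB+ and was not tested. It was well above background on 1 NCE array, whose spot carried an outlier flag and was left out, and on 0 CYGB+ arrays. The 3 LYPD1 probes therefore split into a pair with a difference and 1 without a measurable level in either group, and the sequences of the probes, which would place them on the transcripts, were not used here.

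**Figure D2:**
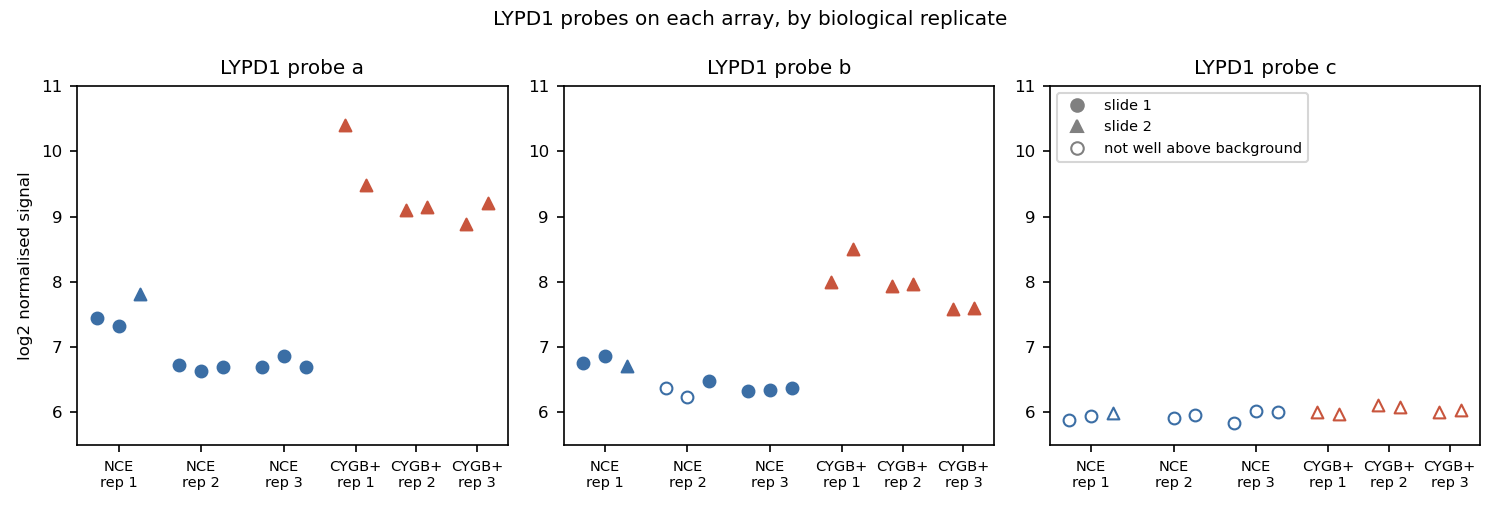
The 3 LYPD1 probes are plotted on each array as log2 normalised signal, arranged by group and biological replicate. Circles are slide 1 and triangles slide 2, and open symbols were not well above background. For probe a the NCE array on slide 2 was at 7.82, above the 7.33 to 7.45 of the other arrays of the same replicate and below all 6 CYGB+ arrays. An array of probe c without a point had an outlier flag.

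Replicate 1 of NCE, the only one on both slides, gives a view of the slide. For LYPD1 probe a its slide 2 array, at 7.82, was higher than its slide 1 arrays, at 7.33 to 7.45. With slide as a term in a fit of all 15 arrays the difference of probe a was 1.72 in place of 2.38, and on slide 2 alone it was 1.55. Replicate 1 was also the highest NCE replicate for this probe, at 7.53 against 6.68 and 6.75. The value on slide 2 alone therefore mixes replicate and slide. Probe b moved less, to 1.33 with the slide term and to 1.22 on slide 2 alone.

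Likeness to LYPD1 probe a over the 6 replicates was ranked among tested probes with a gene name, those of LYPD1 left out. The highest were those of PLEKHO1 (r = 0.9983), TMEM138 (r = 0.9972) and PPRC1 (r = 0.9967). With 2 separate groups of 3 such values are common, and 1071 of these named probes had an r over 0.9. PLEKHO1, which encodes a pleckstrin homology domain protein, read 7.87, 7.41 and 7.41 in NCE and 8.98, 8.65 and 8.52 in CYGB+. Its replicate 1 values were, as for LYPD1 probe a, the highest of each group. The choice of PLEKHO1 by its r over these same values largely fixes that likeness.

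LYPD6, which binds LRP6 and augments Wnt signalling and also acts on nicotinic receptors, was higher in CYGB+ on its probe a. That probe read 6.53, 6.39 and 6.43 in NCE and 7.45, 7.22 and 7.27 in CYGB+. The replicates of a group lay within a narrow band, and the groups did not overlap on any array (NCE 6.19 to 6.63, CYGB+ 7.14 to 7.5). The difference was 0.86 (SE 0.11, 95% interval 0.61 to 1.11), or 1.81-fold, with 8 of 9 NCE arrays well above background. LYPD6 probe b, made to another transcript accession, read 6.55, 6.41 and 6.43 in NCE and 6.99, 6.66 and 6.84 in CYGB+. Its difference of 0.37 (SE 0.12, 95% interval 0.09 to 0.64) ran the same way but did not pass the threshold. With slide as a term the values were 0.79 for probe a and 0.27 for probe b.

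SLURP1, a secreted member and a ligand of nicotinic receptors in keratinocytes, differed little. Its probe read 6.35, 6.42 and 6.37 in NCE and 6.38, 6.43 and 6.35 in CYGB+, and the groups overlapped. The difference was 0.01 with a 95% interval from -0.21 to 0.22, and 8 of 9 NCE and all 6 CYGB+ arrays were well above background.

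LYPD3 (also called C4.4A), a GPI-anchored protein of the suprabasal layers of squamous epithelium that binds laminins and the AGR2 protein, was lower in CYGB+ on both probes. Probe a read 8.21, 7.65 and 7.74 in NCE and 6.77, 7.33 and 7.06 in CYGB+. Its difference was -0.81 (SE 0.20, 95% interval -1.27 to -0.36), so NCE was 1.75-fold higher. Single arrays of the groups overlapped slightly, NCE reaching down to 7.30 and CYGB+ up to 7.37. The lowest array, at 6.33, was the one that stood apart, and without it the difference was -0.67.

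LYPD3 probe b, with 2 spots per array, read 7.84, 7.41 and 7.66 in NCE and 6.89, 7.02 and 6.98 in CYGB+. The NCE arrays spanned 7.40 to 7.92 and the CYGB+ arrays 6.77 to 7.05, with no overlap. The difference was -0.68 (SE 0.13, 95% interval -0.98 to -0.37), or 1.6-fold higher in NCE. With slide as a term both probes of LYPD3 were further apart, at -1.12 for probe a, which was then not called, and -0.89 for probe b, which was. On slide 2 alone and by the methods' t-test neither was called, and probe a was not called with no filter.

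LYPD5, a less studied GPI-anchored relative from the same chromosome, was not tested because it was well above background on 8 of 9 NCE and 5 of 6 CYGB+ arrays. Its probe read 6.38, 6.56 and 6.59 in NCE and 6.29, 6.32 and 6.56 in CYGB+, and the groups overlapped. The difference was -0.12 (95% interval -0.36 to 0.12, from a fit without the filter).

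PSCA, prostate stem cell antigen, a GPI-anchored protein of several epithelia, was lower in CYGB+. It read 7.49, 7.05 and 7.33 in NCE and 6.80, 6.83 and 6.75 in CYGB+. The CYGB+ values lay close together, and no array of one group reached the other (NCE 7.03 to 7.76, CYGB+ 6.71 to 6.90). The difference was -0.49 (SE 0.13, 95% interval -0.80 to -0.19), or 1.41-fold higher in NCE. It was -0.92 with slide as a term, and the NCE array on slide 2 was the highest of its group at 7.76. PSCA was not called with normexp and 75th percentile scaling, with no filter, on slide 2 alone, by the methods' t-test or when any 1 replicate was left out.

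LY6D, a surface antigen of keratinocytes used as a marker of squamous carcinoma cells, had the largest spread between arrays of a replicate among the member probes. It read 7.16, 6.90 and 7.19 in NCE and 7.88, 7.23 and 7.42 in CYGB+. The pooled SD between arrays of a replicate was 0.35, against 0.26 between replicates, and the arrays overlapped. The difference was 0.43 (SE 0.18, 95% interval 0.01 to 0.84), did not pass the threshold, and turned sign to -0.09 with slide as a term and to -0.07 on slide 2 alone.

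LY6E, an interferon-induced protein that restricts the entry of several viruses, read 10.49, 10.47 and 10.53 in NCE and 10.73, 10.85 and 10.75 in CYGB+. The replicates did not overlap, while the arrays did. Its difference was 0.28 (SE 0.09, 95% interval 0.06 to 0.50), and it did not pass the threshold. LY6K, a cancer-testis antigen, read 13.46, 13.63 and 13.37 in NCE and 13.42, 13.64 and 13.64 in CYGB+. The LY6K groups overlapped, and the difference was 0.08 (95% interval -0.19 to 0.35).

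**Figure D3:**
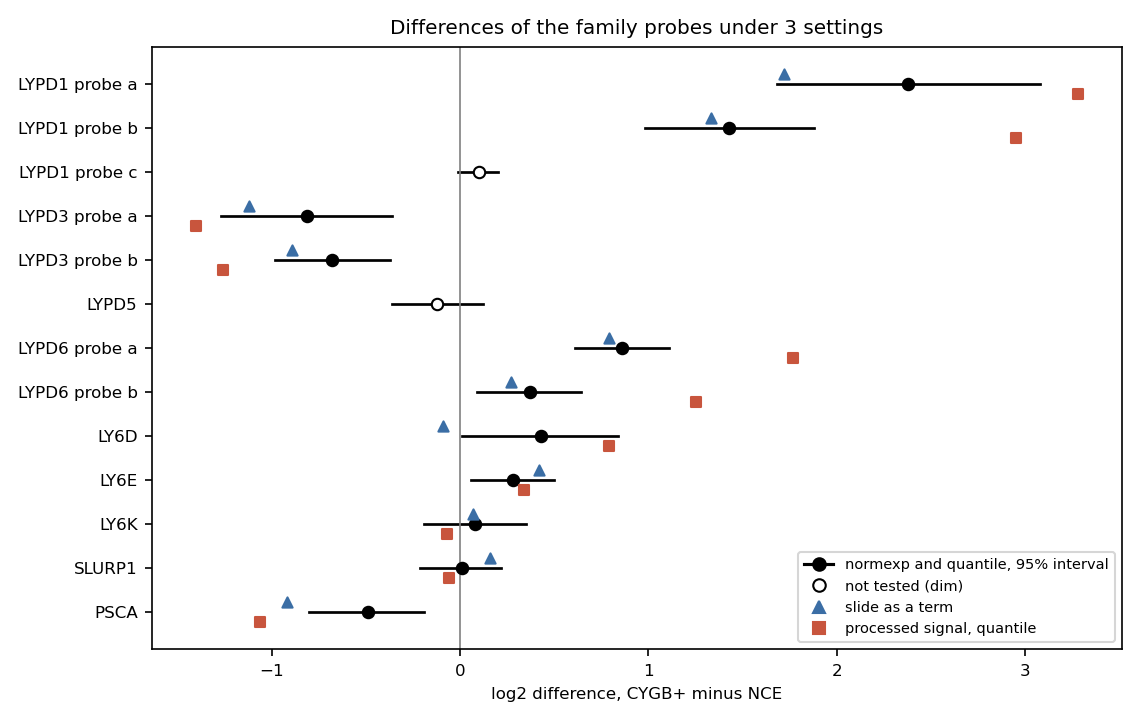
The log2 difference of each probe, CYGB+ minus NCE, is plotted as a circle with its 95% interval (open where the probe was too dim to be tested), beside the value with slide as a term (triangle) and from the scanner's processed signal (square). LYPD1 probes a and b stay above 1 under all 3 settings, both LYPD3 probes and PSCA stay below 0, and LY6D crosses 0 with the slide term.

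The scanner software's processed signal gave larger differences for the dim probes, 3.28 and 2.95 for LYPD1 probes a and b, 1.77 for LYPD6 probe a, -1.40 and -1.26 for LYPD3 and -1.06 for PSCA. The main values rest on a background correction that adds a constant of 50 to every spot before the logarithm, which by its construction draws low signals together. The processed signal also carries a dye normalisation against the red channel, and no setting changed the constant alone, so its part was not tested. The sizes given for dim probes depend on the processing, while the signs of these 6 probes were the same in both. LY6K, with 0.08 in the main values, was at -0.07 in the processed signal. LYPD6 probe b, with 0.37 in the main values and not called, was at 1.25 in the processed signal and was called there.

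None of the other family genes tested was called. Of 29 further LY6/uPAR genes, 25 had a probe and 6 were tested (PLAUR, CD59, LYPD6B, LYNX1, LY6G5B and LY6G6D), and 0 were called in limma, 0 had an unadjusted p under 0.05 and 0 were called by the methods' t-test. Their median difference was -0.03, with a range from -0.40 to 0.15, beside a median of 0 over 12129 tested genes, of which 13.8% were called. PLAUR, the urokinase receptor that names the family, read 9.12, 9.25 and 9.43 in NCE and 8.73, 9.18 and 9.28 in CYGB+, a difference of -0.20. CD59, which shields cells from complement, differed by 0.05, and LYPD6B, the neighbour and closest relative of LYPD6, by -0.10.

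Receptors and ligands that family proteins bind were counted next, 17 genes with 9 tested. Of these, 1 was called, lower in CYGB+, beside 13.8% of all tested genes. It was ITGB4, an integrin subunit of hemidesmosomes, at 13.14, 13.18 and 13.10 in NCE and 12.14, 12.73 and 12.45 in CYGB+ (difference -0.70, SE 0.15, adjusted p = 0.029, limma). No gene of this list was called with the processed signal, with no filter, with slide as a term, on slide 2 alone or by the methods' t-test. The partner of ITGB4, ITGA6, differed by -0.59 (adjusted p = 0.098, limma) on the brightest probe and by -1.12 (adjusted p = 0.030, limma) on a second probe. CHRNA7, CHRNA3, CHRNA4, CHRNA6, CHRNA9 and CHRNB2, subunits of nicotinic receptors, were well above background on 0 arrays. CHRNA5 and CHRNA10 were well above background on all 15 and differed by 0.35 and -0.15, neither called. LRP6 differed by 0.28 and AGR2 by -0.42, neither called, and the median over the tested genes was -0.11.

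Enzymes that build and attach the GPI anchor were nearly all measured, 27 of 28, and 10 were called, 3 higher and 7 lower in CYGB+, beside 13.8% of all tested genes. DPM3, which stabilises the dolichol-phosphate mannose synthase, was at 10.85, 10.55 and 10.76 in NCE and 11.90, 12.01 and 11.82 in CYGB+, a difference of 1.19 (adjusted p = 0.0038, limma). A second DPM3 probe read 6.87, 12.48 and 7.23 in the CYGB+ replicates, with 1 array at 17.73. Its difference was 1.92 (SE 1.32), in the same direction and not called. PIGL, the deacetylase of an early step, was higher by 0.73 (adjusted p = 0.036, limma). PIGP, a subunit of the first enzyme of the pathway, fell by 0.91 (adjusted p = 0.016, limma), and PIGU, a subunit of the transamidase that attaches the anchor, fell by 0.77 (adjusted p = 0.0096, limma). The median over the list was -0.02. With slide as a term 1 gene of the list was called, where 3.87% of all probes were called.

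Genes beside the family loci were taken to see whether whole regions differed. Around the chromosome 8 cluster 20 of 23 neighbours were tested and 4 were called, 3 higher and 1 lower, with a median of 0.12, beside 13.8% of all tested genes called. They were TIGD5 (0.63), PYCR3 (0.62), which encodes a proline synthesis enzyme, ARC (0.60) and NAPRT (-0.70), which encodes an NAD salvage enzyme, and PYCR3 had a second probe at 0.16 that was not called. Around LYPD3 and LYPD5, 12 of 13 were tested and 3 were called. KCNN4, a calcium-activated potassium channel gene, read 8.70, 8.29 and 8.95 in NCE and 6.92, 7.11 and 7.09 in CYGB+, a difference of -1.61 (adjusted p = 0.0044, limma), while ZNF428 (0.56) and SMG9 (0.51) were higher, and the median was -0.07. Beside LYPD1 and LYPD6, 3 of 4 neighbours were tested and 0 were called in limma, with 0 at an unadjusted p under 0.05 and 0 by the methods' t-test. Over the 3 regions 7 neighbours were called, and 3 were with slide as a term and 3 by the methods' t-test. GPR39, the zinc-sensing receptor gene beside LYPD1, differed by -0.21.

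**Figure D4:**
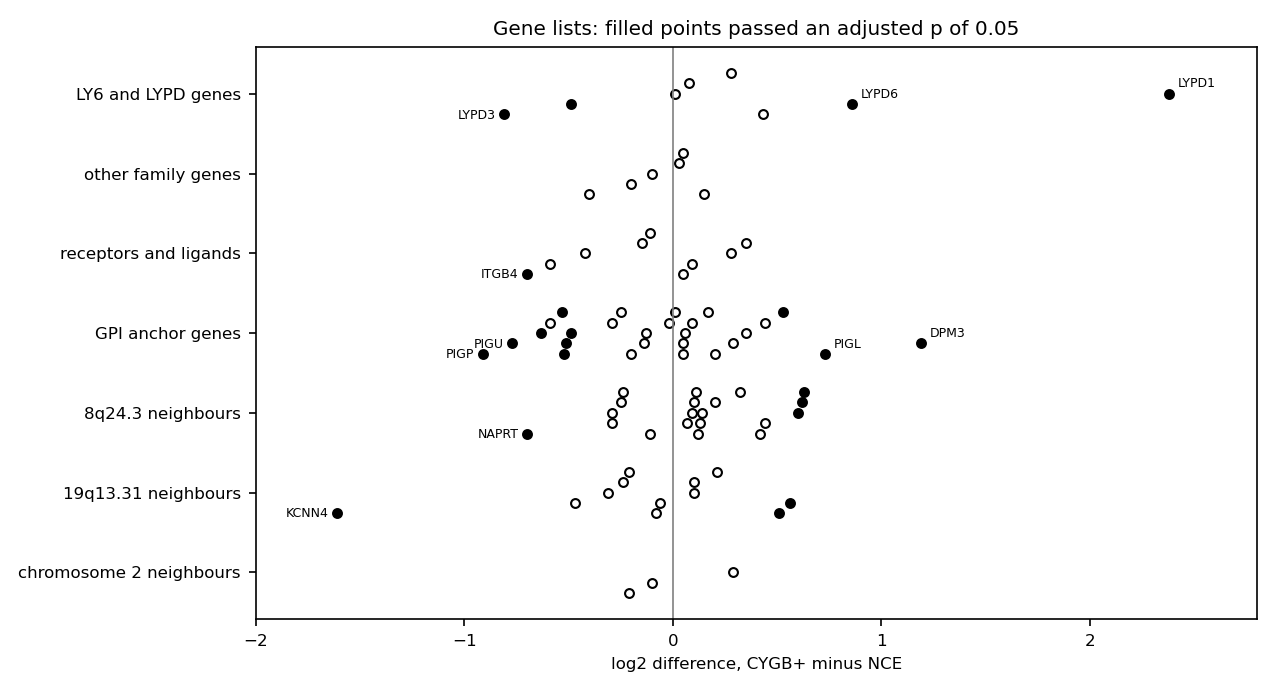
Each point is the log2 difference, CYGB+ minus NCE, of 1 tested gene by its brightest probe, in rows by gene list. Filled points passed an adjusted p of 0.05 in limma. The 6 other family genes all lie between -0.40 and 0.15, while the GPI anchor genes spread to both sides of 0.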

How the data were processed

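RNA of the 15 samples was hybridised to 60-mer oligonucleotide arrays, and the scanner files come from Feature Extraction 10.7.3.1 per the file headers. The deposited green intensity was used, since the labels give Cy3 for every sample. The methods assign Cy5 to control RNA, and the red channel, which holds RNA the labels do not name, was not used. The mean green intensity planned for was not among the deposited columns, so the median spot intensity and median local background took its place. These were corrected with normexp (offset 50), outlier-flagged and control spots left out, log2 transformed and quantile normalised. Repeat spots were averaged, and then the arrays of a biological replicate. A probe was tested when well above background on every array of at least 1 group, counting on an array if at least 0.5 of its spots were flagged so. limma 3.58.1 in R 4.3.3 compared 3 with 3 replicates, with Benjamini-Hochberg adjustment over 19791 probes. The number of arrays limits the precision.

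Accessions were matched to the RefSeq table, which named 25422 of 27310 RefSeq probes. A gene in a list was represented by its brightest probe. The members and lists were chosen with earlier results of these data known. All member probes were named, and from each other list up to 4 called genes with the largest absolute difference, plus CYGB and the 3 genes most like LYPD1; further genes named for their role or because a probe pair disagreed were chosen after their values were seen. After subtracting group means, same-numbered replicates correlated over tested probes at 0.215, 0.231 and 0.312, all over 0.1, which met the rule for pairing. The main fit nonetheless had no pairing term, and a fit with the replicate number as a block was run as an alternative. Some differently numbered replicates correlated as much (NCE 1 with CYGB+ 2 at 0.218, NCE 2 with CYGB+ 3 at 0.304), so the correlations do not single out the numbers.

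The authors' value table, deposited with no stated scale, matched 15031 of 15040 probes. Its differences followed the green log2 differences (r = 0.866, slope 0.639), and its lowest value, -4.605, equals the natural log of 0.01. The deposited values were therefore read as natural log, in the direction of the green channel. The median of the 6 CYGB+ columns had a median of -0.00045 over probes, which does not show whether each probe was centred on these arrays. Column medians ran from -0.161 to 0.182. How the table was filtered stays unknown, and it served as an alternative for the count of all probes called. Of the member probes it held only those of LY6E (0.40) and LY6K (0.18), so no called member probe could be compared with it.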

Additional observations from a re-analysis of the deposited data

Results flagged for a closer look

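Among 22 sets of arrays, 1 array lay far from the others of its group, with a gap of 0.68 of the range. Chance was taken to give about 1 in 20, so 1 among 22 is not unusual. The sets come from the same arrays and are not independent. LYPD3 probe a read 6.33 on the first array of CYGB+ replicate 1, while the other 5 CYGB+ arrays read 7.04 to 7.37. This is the array whose correlation with its group was 0.934. Whether the array or the RNA gave the low value was not tested.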

How the results depend on the processing

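The precision is set by 3 replicates a group, by dim probes near background and by the slides. Of 188 member values under other settings, 180 kept the sign and 150 moved by less than 1 SD between replicates, and no called value changed sign. These counts include settings that changed only the filter, the test or the replicate term, where a member's difference could not move. They also include the fits without 1 replicate, which share most of their arrays, so the counts are no measure of stability. Counts of all probes called (2380) became 4672 with 15 arrays and a random replicate, 765 with slide as a term, 5 on slide 2 alone (1 NCE array, with the spread taken from CYGB+), 771 by the methods' t-test after adjustment (5067 at the unadjusted threshold), 1444 in the authors' table and 4113 without the array that stood apart, chosen after seeing the data. Of the 6 member probes called, 0 were called on slide 2 alone and 1 by the t-test, LYPD6 probe a; with the slide term 5 were called, LYPD3 probe a being lost. Member probe calls (6) became 7 with the processed signal under either scaling and 8 with the random replicate. Other family genes (0) became 1 with the processed signal under quantile scaling and stayed at 0 under 75th percentile scaling. Receptor and ligand calls (1) became 0 with the processed signal under either scaling, with no filter, with slide as a term, on slide 2 alone and by the t-test, and 2 with the random replicate and without the array apart. GPI anchor calls (10) became 6 with the processed signal under quantile scaling, 4 under 75th percentile scaling, 6 with normexp and the 75th percentile, 1 with slide as a term, 0 on slide 2 alone and 2 by the t-test. Neighbour calls (7) became 12 with the random replicate, 3 with slide as a term, 0 on slide 2 alone and 3 by the t-test.

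With the replicate block, 3057 probes and 2 receptor or ligand genes were called, and it moved no other count by over 1.5 times. Leaving out 1 replicate gave 521 (without NCE replicate 2) to 2383 probes, 3 to 5 member probes, 0 other family genes, 0 to 1 receptor or ligand genes, 2 to 8 GPI anchor genes and 1 to 6 neighbours. LYPD1 probes a and b and LYPD6 probe a were called in every such fit, and PSCA in none. LYPD3 probe a was called only without CYGB+ replicate 2, and LYPD3 probe b was lost without NCE replicate 1, NCE replicate 3 or CYGB+ replicate 3. All these fits kept the main filter, which LYPD1 probe b and LYPD6 probe a passed only through the CYGB+ arrays. When probes had to be well above background on all arrays, neither was tested and 4 member probes were called. Scan time coincided with slide and was not run. The causes were not tested.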
